A study of Mus musculus with 2 samples.

Results

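The nuclear-encoded subunits of the respiratory chain were taken as the genes whose symbol starts with Nduf followed by a, b, c, s or v and a digit, with Uqcr, with Cox and a digit from 4 to 8 and a letter from a to c, or with Atp5, together with Cyc1. A gene also had to own a protein-coding transcript and carry no pseudogene tag in its symbol. The rule found 80 gene identifiers under 79 symbols, of 55536 annotated genes, 22028 of them protein-coding. By the start of the symbol, 37 of the 80 were assigned to complex I, 9 to complex III, 16 to complex IV and 18 to complex V. The symbol Atp5o has 2 identifiers, and the second of them had 0 reads in both libraries. Another 12 symbols fitted the letters but lacked a protein-coding transcript or had a pseudogene tag, among them Ndufb1-ps, annotated as a long noncoding RNA, at 185 and 102 TPM. Subunit genes that the letters do not reach are Cox4i1, at 641 TPM in replicate 1 and 314 TPM in replicate 2, Ndufab1, at 80.5 and 68.6 TPM, and Cox4i2, listed at 0 in both. TPM is a transcript level corrected for length and scaled to the same fixed total over all features of each library.

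The material was polyA plus RNA of macrophages grown from bone marrow of C57BL/6J mice, primary phagocytes of innate immunity. The cells first received lipid A, the membrane anchor of bacterial lipopolysaccharide, at 100 ng/ml during 12 h. They were then kept for 12 h after washing and met 100 ng/ml lipid A a second time for 120 min before lysis. Some label fields call the agent lipoprotein A instead of lipid A. Both libraries share this whole treatment and 1 donor identifier, the labels give neither age nor sex, and no unstimulated cells were analysed here, so the values describe cells stimulated again and no response to lipid A. They are biological replicates 1 and 2 in the labels, and no label states whether they are from separate animals, which leaves room for a spread that is only technical. The gene tables sum to 45377715 expected counts in replicate 1 and 32112416 in replicate 2, and 3 counts, the limit that a count of 0 allows, correspond to 0.0661 and 0.0934 CPM, counts scaled to the library total.

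The respiratory chain sits in the inner mitochondrial membrane. Complex I takes electrons from NADH and passes them to ubiquinone, complex III passes them on to cytochrome c, and complex IV gives them to oxygen. These complexes pump protons, and complex V, the ATP synthase, uses the proton gradient to make ATP. Most subunits are encoded in the nucleus and imported, while a small set is encoded by mitochondrial DNA, so that complexes I, III, IV and V are each built from both genomes. In macrophages activated by lipopolysaccharide, the balance between glycolysis and respiration is known to shift, and complex I and the ubiquinone pool are known sources of reactive oxygen.

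The promoters of these genes are shown first because they are where nuclear control of the set is usually sought: nuclear respiratory factor 1 (NRF1), the ETS family protein GABP and YY1 are textbook regulators of respiratory genes. Promoter sequences came from RefSeq on build GRCm38.p6, with 250 bases before and 50 after each transcript start, and 63 of the 79 symbols had an entry. Symbols without one included Atp5a1, Atp5f1, Atp5mpl, Atp5s, Cox6a2, Cox6c, Cox8c, Cyc1, Ndufa2, Ndufa4l2, Ndufb9, Ndufs1, Uqcrb, Uqcrc2 and Uqcrq. The 5 stretches printed here lie before the start, hold no annotated exon of any gene, and come from complexes I, III, IV and V. Each is on the minus strand and is written 5′ to 3′ along the gene, with matches to the NRF1 motif (GCGCA and GCGC with any 1 base between) or the ETS motif (CCGGAAG) in capitals, on either strand. Cox6a1, the general form of a complex IV subunit, is at chr5:115349016-115349125 and holds 2 NRF1 matches. Ndufs5 is at chr4:123718225-123718334 and Ndufb4 at chr16:37654500-37654609, each with 1 NRF1 match. Atp5e, the epsilon subunit of the ATP synthase, is at chr2:174464147-174464253, and Uqcr11, a small subunit of complex III, is at chr10:80406831-80406937, each with 1 ETS match.
Cox6a1: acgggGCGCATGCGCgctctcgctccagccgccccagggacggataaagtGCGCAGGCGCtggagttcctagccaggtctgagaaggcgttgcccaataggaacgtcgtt
Ndufs5: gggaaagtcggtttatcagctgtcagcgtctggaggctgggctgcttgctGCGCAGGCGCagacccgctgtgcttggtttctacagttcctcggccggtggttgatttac
Ndufb4: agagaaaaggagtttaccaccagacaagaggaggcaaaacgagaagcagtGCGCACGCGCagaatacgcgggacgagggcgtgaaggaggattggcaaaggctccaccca
Atp5e: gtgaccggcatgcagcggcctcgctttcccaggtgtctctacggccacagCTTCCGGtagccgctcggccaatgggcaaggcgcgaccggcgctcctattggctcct
Uqcr11: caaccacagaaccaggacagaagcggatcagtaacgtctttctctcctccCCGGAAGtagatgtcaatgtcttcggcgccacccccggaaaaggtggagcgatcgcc

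The NRF1 motif was present in promoters of 15 of the 63 member symbols (23.8%), against 5.19% of all 27025 symbols in the promoter table and 13.0% of the 7831 protein-coding symbols with a promoter entry that reached 1 TPM in both libraries. Its 20 matches lay from 191 bases before the start to 31 after it. The ETS motif was in 14 (22.2%), against 9.93% of all and 23.2% of the detected protein-coding symbols, a share close to the latter. The YY1 motif AAGATGGCG was in 7 (11.1%), against 1.64% and 4.25%. Of its 7 matches, 6 lay just after the start, in Atp5j2, Ndufa9, Ndufc1, Ndufs4, Ndufs6 and Ndufs7, between bases 23 and 36 of the transcript, and the one in Atp5j began 88 bases before it. The SP1 motif GGGCGG was in 24 (38.1%), against 38.2% of all and 69.8% of the detected protein-coding symbols, and the TATA motif TATAAA in 7 (11.1%), against 15.7% and 8.25%. Unlike the detected symbols, the 63 member symbols include Cox6b2, Cox7a1, Cox7b2 and Cox8b, which did not reach 1 TPM in both libraries. Of these, Cox7b2 and Cox8b hold TATA matches, and Cox6b2 and Cox7b2 hold SP1 matches. All motifs were searched as exact letters on both strands, and none of them contains another. Promoters of members had a median G+C content of 57.0%, against 52.7% for all promoters, those of silent genes included. The median over detected protein-coding symbols is not given here. A match describes these letters and not a bound site, and occupancy was not measured.

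Nearly the whole set was expressed. Of the 80 members, 73 reached 1 TPM in both libraries, where 44.4% of protein-coding genes did. At least 100 TPM in both libraries was reached by 27 members, against 5.2% of protein-coding genes. Summed over members, the level was 14701 TPM in replicate 1 and 8429 TPM in replicate 2, or 1.47% and 0.843% of all TPM. The median over the 73 detected members was 136 and 78.6 TPM, against 17.8 and 18.1 TPM over all detected protein-coding genes. The order of the members was largely shared between the libraries, with Pearson's r of 0.92 and Spearman's rho of 0.91 over the 73 members on the log2 TPM scale, a description across genes that share their libraries. Because these are bulk samples, fewer cells of a type and less RNA per cell cannot be told apart.

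The median level of detected members differed between complexes, and the order was IV, V, III, I in both libraries. It was 334 TPM in replicate 1 and 187 TPM in replicate 2 for complex IV (11 detected members), 276 and 120 TPM for complex V (17), 169 and 82.7 TPM for complex III (9), and 95.4 and 61.1 TPM for complex I (36). Both values of complexes IV and V were above both values of complex I. Neighbours in the order overlapped: replicate 2 of complex IV lay below replicate 1 of complex V, replicate 2 of complex V below replicate 1 of complex III, and replicate 2 of complex III below replicate 1 of complex I. Complex IV was 3.50-fold above complex I in replicate 1 and 3.07-fold in replicate 2, complex V 2.90-fold and 1.97-fold, and complex III 1.77-fold and 1.35-fold. Over every member, the silent ones included, complex V came first, with a median log2(TPM + 1) of 7.71 averaged over the libraries, then complex IV at 7.07, complex III at 6.90 and complex I at 6.26. Complex IV drops in that order because 5 of its 16 genes, tissue forms with few or no reads, were not detected in both libraries. Members of 1 complex are not replicates, so these medians have no test.

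**Figure D1:**
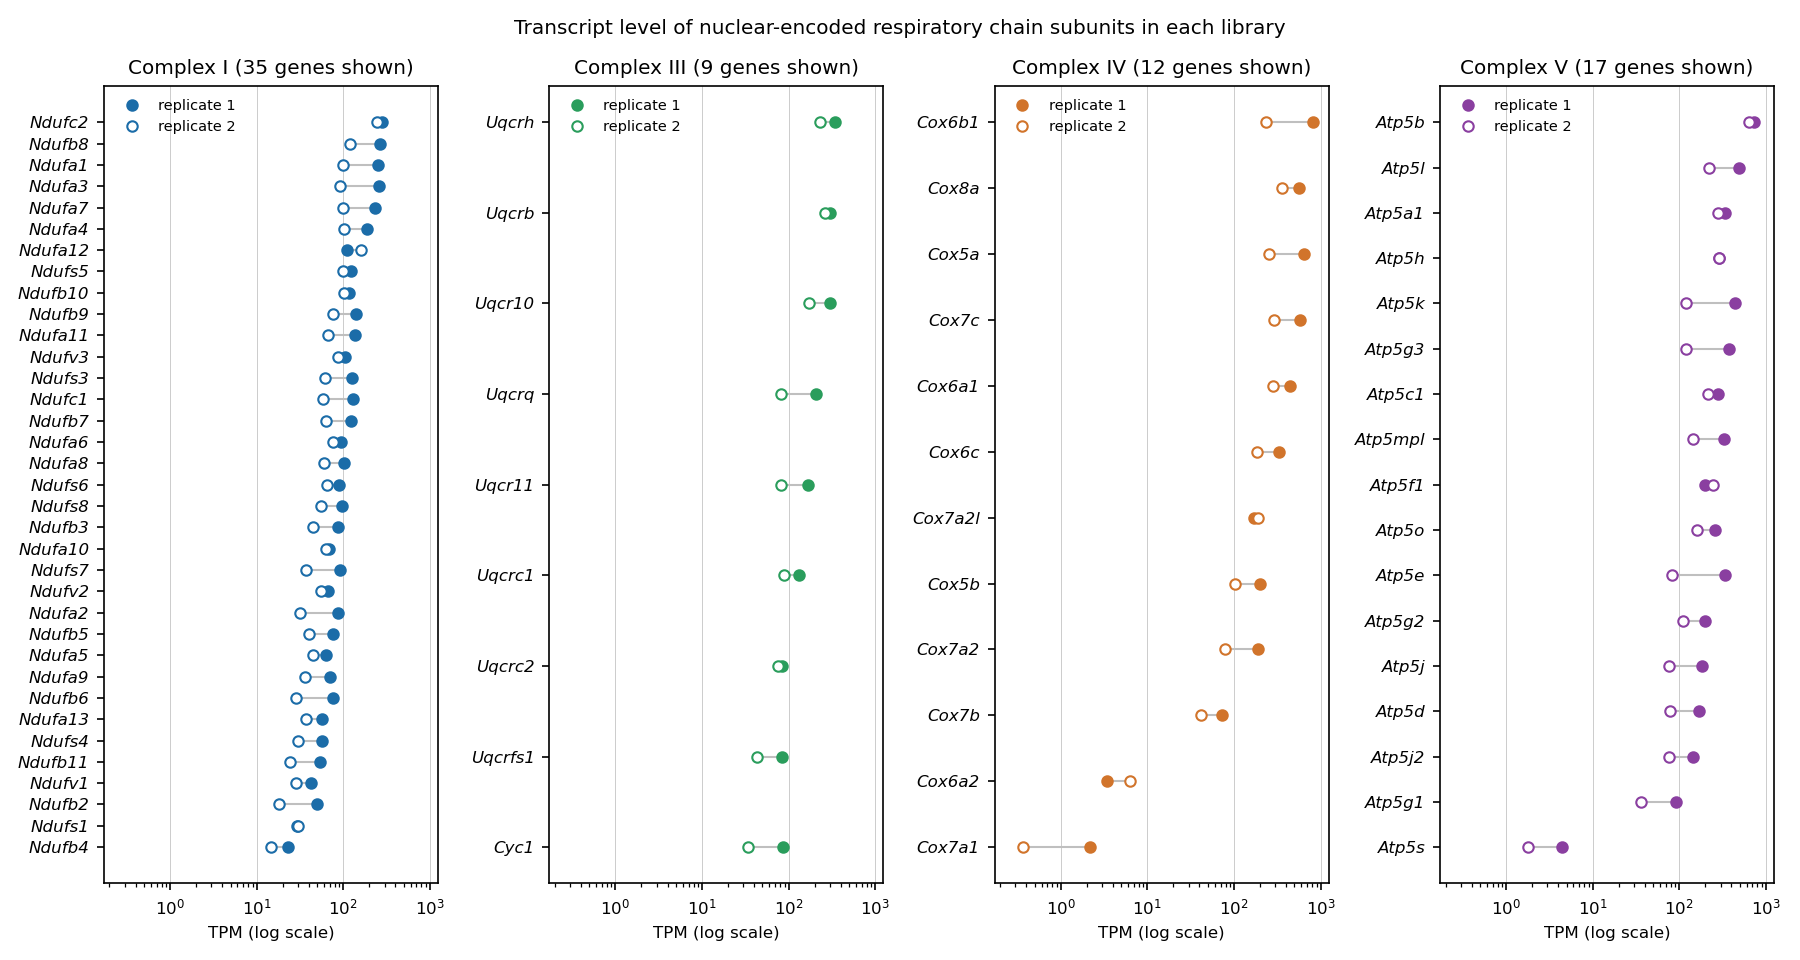
Transcript level of members with reads, in TPM on a log scale, in replicate 1 (filled) and replicate 2 (open), by complex and ordered by mean level. Most points lie between 10 and 1000 TPM, replicate 1 lies to the right for nearly every gene, and Cox6a2, Cox7a1 and Atp5s stand far below the rest.

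Among the 36 detected members of complex I, levels ran from 22.9 to 283 TPM in replicate 1 and from 14.8 to 244 TPM in replicate 2. The 3 highest by mean level were accessory subunits of the membrane arm, which hold the complex together without carrying electrons. Ndufc2 (chr7:97400003-97407802, plus strand, mm10) stood at 283 and 244 TPM, Ndufb8 at 269 and 120 TPM, and Ndufa1, on the X chromosome, at 254 and 99.2 TPM. At the low end were Ndufb4, at 22.9 and 14.8 TPM, and Ndufs1, at 29.4 and 30.0 TPM. Ndufs1 encodes the largest subunit of the peripheral arm and carries iron-sulfur clusters, and its TPM hardly differed between the libraries, while its scaled count, described below, was 1.35-fold higher in replicate 1.

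The 7 core subunits of complex I made in the nucleus pass electrons from NADH to ubiquinone. Ndufv1, which binds NADH and the flavin, was at 42.2 and 28.2 TPM, and Ndufv2, its neighbour with an iron-sulfur cluster, at 66.5 and 56.0 TPM. Of the ubiquinone-binding module, Ndufs3 stood at 128 and 61.5 TPM, Ndufs7 at 92.3 and 36.8 TPM, and Ndufs8 at 96.8 and 55.9 TPM. By scaled count all 7 core subunits were higher in replicate 1. In each library the 3 subunits at the NADH-oxidising end, Ndufv1, Ndufv2 and Ndufs1, include the lowest of the core. The median of the core was 92.3 TPM in replicate 1 and 55.9 TPM in replicate 2, and that of the other 29 detected members was 101 and 63.6 TPM, a gap smaller than the difference between the libraries. The gene body of Ndufs1 overlaps that of Eef1b2 on the opposite strand (192 and 157 TPM), and whether counting used strand is not given in the sources used here.

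Complex III was detected in full, with all 9 members between 83.0 and 340 TPM in replicate 1 and between 34.2 and 266 TPM in replicate 2. Uqcrh, the hinge protein near the cytochrome c docking site (chr4:116066965-116075071, minus strand), led in replicate 1 with 340 TPM and had 232 TPM in replicate 2. Uqcrb, a small subunit near the ubiquinone site, stood at 299 and 266 TPM, and Uqcr10 at 302 and 170 TPM. The nuclear subunits that carry electrons were among the lowest: Cyc1, cytochrome c1, stood at 86.4 and 34.2 TPM and Uqcrfs1, the Rieske iron-sulfur protein, at 83.7 and 43.4 TPM. Of the 2 large core proteins, which have no redox centre, Uqcrc1 stood at 132 and 88.0 TPM and Uqcrc2 at 83.0 and 74.8 TPM. The remaining small subunits were Uqcrq, at 207 and 82.6 TPM, and Uqcr11, whose promoter is shown above, at 169 and 82.7 TPM.

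In complex IV the nuclear subunits surround a catalytic core that mitochondrial DNA encodes, and several of them exist as a general form and a form known from muscle or testis. The general forms were high. Cox6b1 (chr7:30616861-30626151, minus strand) had 829 TPM in replicate 1 and 237 TPM in replicate 2, and Cox8a had 570 and 360 TPM. Cox5a and Cox7c, which have no tissue form in the list, stood at 649 and 257 TPM and at 586 and 294 TPM. Cox6a1 stood at 449 and 284 TPM, Cox6c at 334 and 184 TPM, Cox5b, a zinc-binding subunit, at 202 and 104 TPM, Cox7a2 at 191 and 77.9 TPM, and Cox7b, on the X chromosome, at 73.2 and 42.2 TPM.

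Tissue forms of complex IV were nearly silent. The muscle form Cox8b and the testis forms Cox6b2, Cox7b2 and Cox8c had 0 reads in both libraries, a count of 0 that allows up to 0.0661 CPM in replicate 1 and 0.0934 in replicate 2. For Cox6b2 the deposited TPM interval still lay above 0, at 0.59 to 2.59 in replicate 1 and 0.87 to 3.72 in replicate 2. Cox7a1, a muscle form, had 9 reads (2.15 TPM) in replicate 1 and 1 read (0.37 TPM) in replicate 2. Cox6a2, the remaining muscle form (chr7:128205435-128206387, minus strand), had 43 and 54 reads, or 3.46 and 6.27 TPM, while its general counterpart Cox6a1 was above 280 TPM in both libraries. The 5 muscle genes listed as markers (Ckm, Acta1, Myh6, Myh7 and Tnnt2) summed to 0.01 TPM in replicate 1 and 0 in replicate 2. Cox6a2 therefore had reads in libraries where muscle markers were at or near 0.

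Cox7a2l, a relative of Cox7a2 linked to supercomplexes of complexes III and IV, stood at 169 and 187 TPM, below Cox7a2 in replicate 1 and above it in replicate 2. Whether the product of Cox7a2l has that role in cells of this strain was not tested. Ndufa4, counted here with complex I by its name but now placed in complex IV, had 189 and 102 TPM. Its hypoxia-linked relative Ndufa4l2, counted likewise, had 0 reads in both libraries. The 3 genes that encode the same mature c subunit of the ATP synthase rotor were all expressed, with Atp5g3 at 377 and 119 TPM, Atp5g2 at 200 and 109 TPM and Atp5g1 at 92.2 and 35.8 TPM. Their order was the same in both libraries in the gene table, with Atp5g1 lowest.

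**Figure D2:**
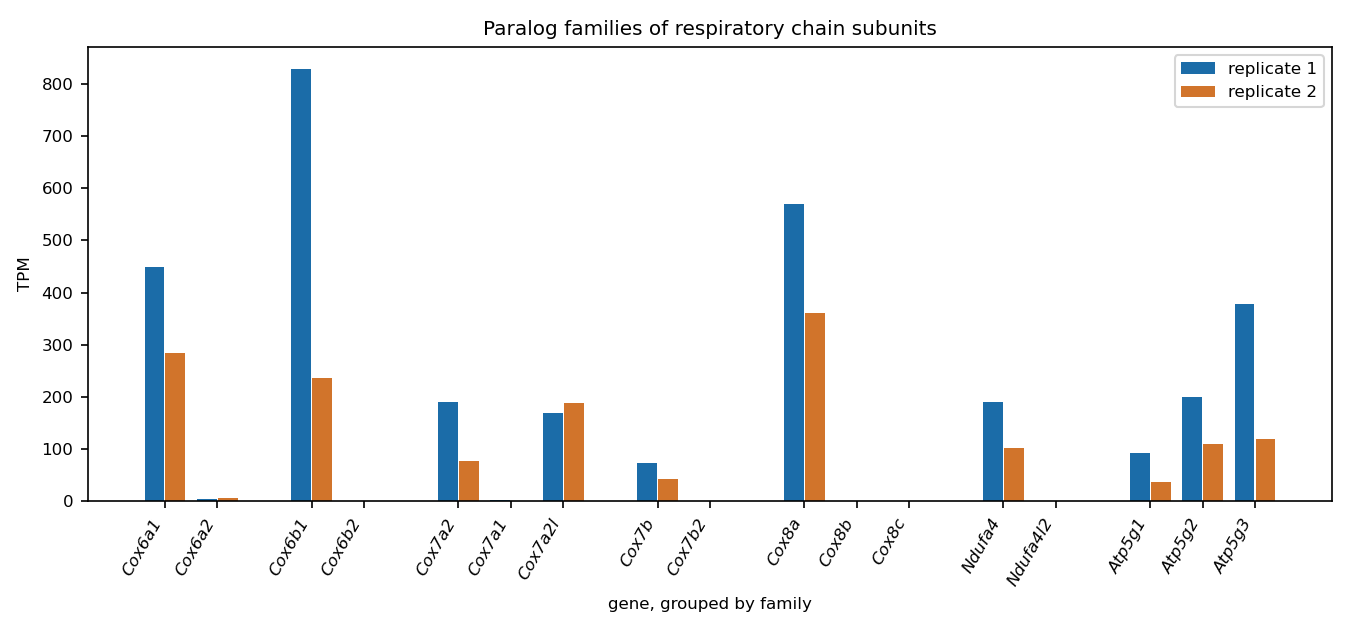
Level in TPM, on a linear axis from 0, of each paralog in 7 families, with 1 bar per library. General forms carry nearly all of the level in the Cox and Ndufa4 families, whereas Cox7a2l stands at 169 and 187 TPM and all 3 Atp5g genes have bars.

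Complex V held the member with the highest mean level. Atp5b, the catalytic beta subunit (chr10:128083273-128090391, plus strand), stood at 728 TPM in replicate 1 and 642 TPM in replicate 2, from 29813 and 17658 reads. Its partner in the catalytic head, the alpha subunit Atp5a1, stood at 335 and 280 TPM, and the gamma subunit of the central stalk, Atp5c1, at 276 and 217 TPM. Beta and alpha are present in equal number in the enzyme, and the beta transcript was above the alpha transcript in both libraries, also in the second quantification, at 477 and 462 TPM against 271 and 253 TPM. The other stalk subunits were lower in replicate 2, with Atp5d (delta) at 167 and 78.6 TPM and Atp5e (epsilon) at 335 and 82.8 TPM.

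The peripheral stalk of complex V holds the head still while the rotor turns, and its transcripts were Atp5f1 at 196 and 244 TPM, Atp5h at 289 and 286 TPM, Atp5j at 184 and 75.9 TPM and Atp5o at 260 and 162 TPM. Of these 4, Atp5f1 was higher in replicate 2 and Atp5h was level. For Atp5f1 this held for a transcript annotated for nonsense-mediated decay, at 82.0 and 152 TPM. Its leading protein-coding transcript was higher in replicate 1, at 113 and 90.1 TPM. The membrane subunits linked to dimer formation were Atp5l, at 491 and 220 TPM, and Atp5k, at 444 and 120 TPM. The other small membrane subunits were Atp5mpl, at 327 and 145 TPM, and Atp5j2, at 143 and 76.1 TPM. The lowest detected gene of the complex was Atp5s, at 4.43 and 1.81 TPM, which encodes a coupling factor and not a structural subunit.

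Several members have close copies in the genome, and the 2 deposited quantifications could be compared for them. One was made from alignments to the transcriptome and the other from the reads and an index. Of the detected members, 2 differed 1.5-fold or more between quantifications in both libraries, where 1.62% of detected protein-coding genes did. Cox6a2 was the first, at 3.46 and 6.27 TPM against 6.34 and 10.1 TPM. Atp5g2 was the other, at 200 and 109 TPM in the gene table and 5.80 and 3.57 TPM in the second quantification. The processed pseudogene Gm10175 (chr7:23946646-23947290, minus strand) holds 87.7% of the 31-base words of the leading Atp5g2 transcript, and it went the other way, from 59.1 and 15.9 TPM to 246 and 122 TPM. The sum of both was nearly the same, 259 and 125 TPM against 252 and 126 TPM, so the quantifications split the reads between the gene and its copy differently and gave like sums.

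Copies of Ndufb4 and Cox7c also carried reads. Ndufb4, the lowest detected member of complex I, shares 38.3% of its 31-base words with the pseudogene Ndufb4c, which had 261 and 152 TPM. The Cox7c pseudogene Gm12338 was listed at 423 and 759 TPM from 117 and 103 reads over an effective length of 7.59 bases, and at 0 in the second quantification. Its TPM therefore rests on a very short effective length. In all, 6 members had an annotated gene sharing at least 50% of these words and 21 had one sharing at least 20%. A gene body of another annotated gene overlapped 36 members, and for 28 of them one lay on the opposite strand. Neither the copies nor the overlaps were counted over all genes, so these counts do not set the members apart.

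**Figure D3:**
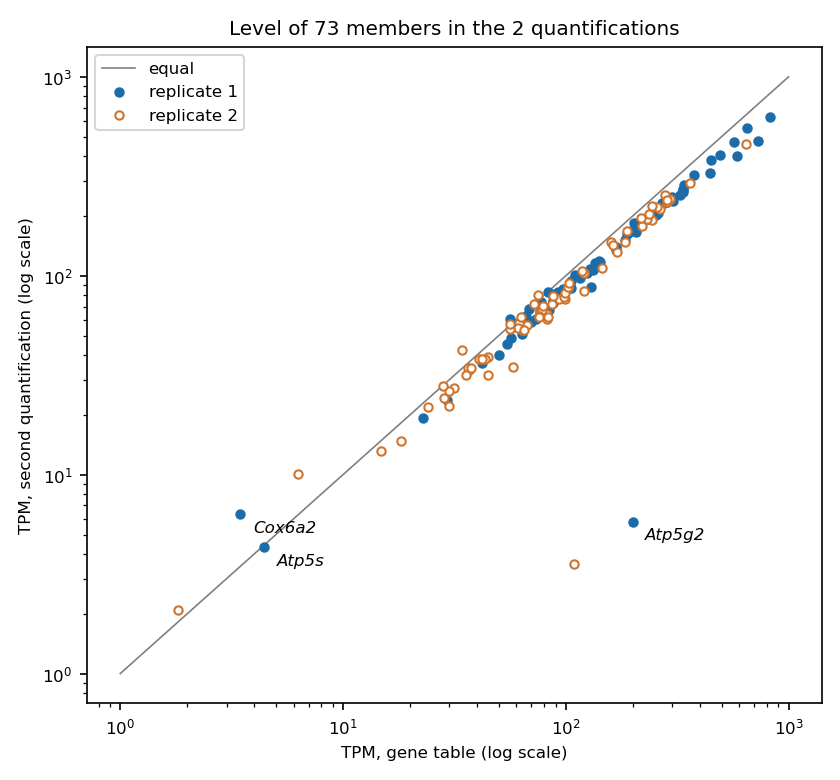
Level of the 73 detected members in the gene table (horizontal, TPM, log scale) and in the second quantification (vertical, TPM, log scale), filled for replicate 1 and open for replicate 2, with a line of equality. Most points lie slightly below the line and a few above it, among them Cox6a2 in both libraries, and Atp5g2 lies far below.

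For most members the level was assigned mainly to coding transcripts. The leading transcript was protein-coding in 70 of the 73 detected members, and protein-coding transcripts made up at least 90% of the gene's level in both libraries for 56. The same shares over all detected protein-coding genes are not given here, so these counts do not set the members apart. The clearest departures were Ndufa5, with a coding share of 33.2% and 31.9%, Ndufs4, with 34.5% and 37.4%, and Atp5f1, with 57.5% and 37.0%. Most of the Ndufa5 level, in TPM, was given to a 453-base processed transcript, and most of the Ndufs4 level to a 571-base transcript annotated for nonsense-mediated decay. These shares are of TPM, and short transcripts take a smaller share of reads than of TPM. For Cox6b1 the leading coding transcript had 48.5% of the level in replicate 1 and 98.6% in replicate 2, because a 369-base retained-intron transcript was assigned 422 TPM in the first and 0 in the second. That assignment changed the length used for Cox6b1: its TPM was 3.50-fold higher in replicate 1, and its scaled count 2.24-fold.

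The 2 libraries differed over nearly the whole set. As replicates of 1 group their ratio is the spread between libraries, not an effect, and it has no p-value. Counts were scaled by TMM, a method that balances the bulk of genes, and genes with a mean expected count of 10 or more were used. Of the 73 members that passed, 68 were higher in replicate 1. Their median log2 ratio (replicate 2 over replicate 1) was -0.83, which is 1.78-fold toward replicate 1. The median over all 12552 genes was -0.03, with 6532 higher in replicate 1. A difference of 1.5-fold or more toward replicate 1 was seen in 53 members (16.7% of all genes tested) and toward replicate 2 in 1, Cox6a2 (13.5% of all genes). The deposited TPM intervals, whose level is not stated, lay wholly above in replicate 1 for 63 members (21.6% of all genes) and in replicate 2 for 4 (24.1%), namely Ndufa12, Cox7a2l, Cox6a2 and Atp5f1.

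The shift was toward replicate 1 in each complex. Its median log2 ratio was -0.82 in complex I, -0.78 in complex III, -0.78 in complex IV and -0.94 in complex V. With the length trend removed, as described below, it was -0.37, -0.45, -0.26 and -0.57. Members 1.5-fold or more higher in replicate 1 numbered 26 of 36 in complex I, 6 of 9 in complex III, 9 of 11 in complex IV and 12 of 17 in complex V.

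The 3 most uneven members were in complex V. Atp5e had 1596 expected counts in replicate 1 and 282 in replicate 2, a 3.83-fold difference after scaling (95% exact interval for counting error only, 3.38 to 4.37). Atp5k followed at 3.57-fold and Atp5g3 at 3.10-fold. Atp5g1 (2.32-fold), Atp5mpl (2.24), Atp5j (2.16), Atp5l (2.15) and Atp5d (2.09) were also past 2-fold, and Atp5j2 (1.84), Atp5g2 (1.80), Atp5o (1.57) and Atp5s (1.92) past 1.5-fold. By contrast the alpha and beta subunits differed by 1.18-fold and 1.15-fold, the gamma subunit by 1.27-fold, and Atp5h by a log2 ratio of 0.01. Within the ATP synthase, then, the alpha, beta and gamma genes stayed under 1.5-fold, while the delta and epsilon genes and all 3 genes of the c ring did not. Transcript length differed along with this, at 2458 bases for Atp5a1 and 1576 for Atp5b but 425 for Atp5e and 373 for Atp5k. Not every gene followed length, since Atp5h has 623 bases and Atp5s 1394.

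In complex I, 11 members were at least 2-fold higher in replicate 1: Ndufa2 (2.72-fold), Ndufb6 (2.64), Ndufa1 (2.51), Ndufs7 (2.50), Ndufa3 (2.45), Ndufb2 (2.40), Ndufa7 (2.33), Ndufs3 (2.29), Ndufb11 (2.22), Ndufc1 (2.19) and Ndufb8 (2.17). Between 1.5-fold and 2-fold were, among others, Ndufa11 (1.99), Ndufv1 (1.93), Ndufb3 (1.93), Ndufa9 (1.89), Ndufb7 (1.86), Ndufa4 (1.80), Ndufb9 (1.78), Ndufa5 (1.76), Ndufb5 (1.75), Ndufs4 (1.72), Ndufs8 (1.66), Ndufa8 (1.64), Ndufb4 (1.51) and Ndufa13 (1.51). Ndufa12 alone in the complex was higher in replicate 2, with 110 and 160 TPM and a log2 ratio of 0.57. Core subunits were on both sides of the threshold, with Ndufv2 at 1.01-fold and Ndufs7 at 2.50-fold.

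Complex III ranged from 1.09-fold for Uqcrb to 2.39-fold for Cyc1, and Uqcrq (2.09), Uqcr11 (1.99), Uqcrfs1 (1.91), Uqcr10 (1.72) and Uqcrc1 (1.5) were also past 1.5-fold. Cyc1 and Uqcrfs1, its electron carriers, were thus both among the uneven genes. In complex IV the largest differences were Cox5a (2.44-fold), Cox7a2 (2.36) and Cox6b1 (2.24), followed by Cox5b (1.93), Cox6c (1.73), Cox7b (1.71), Cox7c (1.62), Cox6a1 (1.54) and Cox8a (1.54). Cox7a2l and Cox6a2 were higher in replicate 2, with log2 ratios of 0.17 and 0.89, the latter from fewer than 60 reads per library.

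Transcript length moved with this difference. Tested members had a median length of 703 bases, against 2526 bases for all tested protein-coding genes. Among other nuclear protein-coding genes the median log2 ratio was -1.08 at up to 400 bases, -0.72 from 400 to 600, -0.44 from 600 to 800, -0.40 from 800 to 1000, -0.21 from 1000 to 1500, and 0.15 above 5000 bases. Members of the same lengths had medians of -1.16 (3 genes), -0.81 (23), -0.87 (18), -0.83 (12) and -0.75 (10) over the first 5 of these ranges. The members and the other genes were thus close below 600 bases, and from 600 to 1500 bases the members lay lower than the rest. Protein-coding genes were also split by length into 20 bins and the median of each bin was subtracted, an alternative chosen after seeing the data. The lowest bin held every tested member up to 840 bases, so a length trend within it was not removed. The members' median then became -0.39, and 58 of 73 were still higher in replicate 1 (6201 of all 12552 genes). In 24 the difference was still 1.5-fold or more toward replicate 1 (13.1% of all genes). The fragment length implied by the gene tables was 285 bases in replicate 1 and 274 in replicate 2, and for the second quantification it was 315 and 240. The part of fragment length or RNA quality in the result was not tested.

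**Figure D4:**
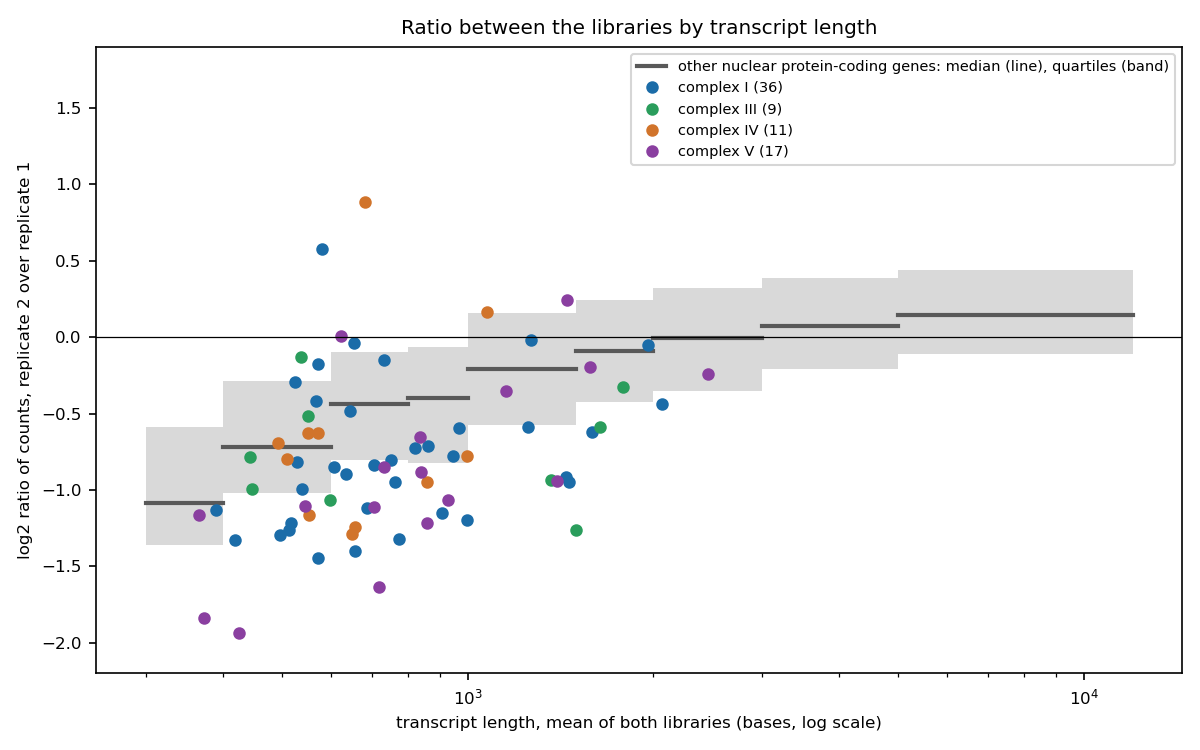
Log2 ratio of scaled counts, replicate 2 over replicate 1, against transcript length in bases on a log scale, with 1 point per tested member coloured by complex, and the median (line) and quartiles (band) of other nuclear protein-coding genes in 9 length ranges. The medians of other genes lie below 0 in the ranges up to 3000 bases, Cox6a2 and Ndufa12 stand clearly above 0, and members from 600 to 1500 bases lie mostly below the median of genes of their length.

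Other genes of the pathway, listed by their known roles, did not all share the shift. The 13 subunits encoded by mitochondrial DNA differed in the other direction: their ratio had a median of 0.95 on the log2 scale, and 11 of 13 were at least 1.5-fold higher in replicate 2. Their summed level was 30308 TPM in replicate 1 and 68451 TPM in replicate 2, a 2.26-fold difference in the gene table and 2.29-fold in the second quantification. Relative to the summed nuclear-encoded members they stood 2.06-fold higher in replicate 1 and 8.12-fold higher in replicate 2. In the second quantification these values were 1.72-fold and 6.63-fold. The 3 listed highest were mt-Atp8, at 16712 and 38267 TPM, mt-Co1, the catalytic subunit of complex IV, at 5682 and 14056 TPM, and mt-Nd6, at 1613 and 2984 TPM. Values of single mitochondrial genes are uncertain, since 6 of the 13 differed 1.5-fold or more between quantifications in both libraries. The sums in the gene table rest largely on mt-Atp8, which had only 6276 and 7372 expected counts, against 224785 and 379096 for mt-Co1. In the second quantification mt-Atp8 stood at 4453 and 7719 TPM. As TPM is a share of a fixed total, a higher mitochondrial share lowers the TPM of all other genes, whereas the ratio above is scaled by TMM.

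Complex II, built from nuclear genes alone, and cytochrome c were split: Sdhb, its iron-sulfur subunit, stood at 272 and 124 TPM and was 1.5-fold or more higher in replicate 1, as were Sdhc and Sdhd, while Sdha, the flavoprotein, stood at 131 and 147 TPM and cytochrome c, Cycs, at 56.1 and 69.9 TPM. Assembly factors, which help to build the complexes without staying in them, were lower in level. Their transcripts are longer than those of the subunits, with median lengths from 1202 to 1668 bases over the 4 lists, so their ratios and those of the subunits are given side by side and no difference was tested. The median log2 ratio was -0.24 over 14 factors of complex I, of which 3 were 1.5-fold or more higher in replicate 1 and 1 in replicate 2. It was -0.35 over 6 of complex III (1 and 1), -0.21 over 19 of complex IV (7 and 0) and -0.36 over 3 of complex V (0 and 0). Over all genes tested, 16.7% were 1.5-fold or more higher in replicate 1 and 13.5% in replicate 2. With the length trend removed the medians of the 4 lists were -0.18, -0.03, -0.12 and -0.26. Among them the highest by mean level were the copper chaperone Cox17, at 306 and 140 TPM, and Coa5, at 140 and 147 TPM, both for complex IV, and Uqcc2, for complex III, at 116 and 34.4 TPM.

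Of 10 regulators of mitochondrial biogenesis, 8 reached 1 TPM in both libraries, with Esrra past 1.5-fold toward replicate 1 and Ppargc1b, at 0.96 and 1.71 TPM, toward replicate 2. The nuclear receptor Esrra stood at 40.8 and 16.6 TPM, Yy1 at 12.8 and 35.1 TPM, and Gabpa, the DNA-binding part of GABP, at 12.8 and 28.7 TPM. On scaled counts the log2 ratios of Yy1 and Gabpa were 0.43 and 0.58, less than their TPM differed. Nrf1, whose motif was searched above, stood at 11.5 TPM in both. The coactivator Ppargc1a, known for its role in mitochondrial biogenesis in muscle and brown fat, was at 0.02 TPM in replicate 1 and 0 in replicate 2.

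**Figure D5:**
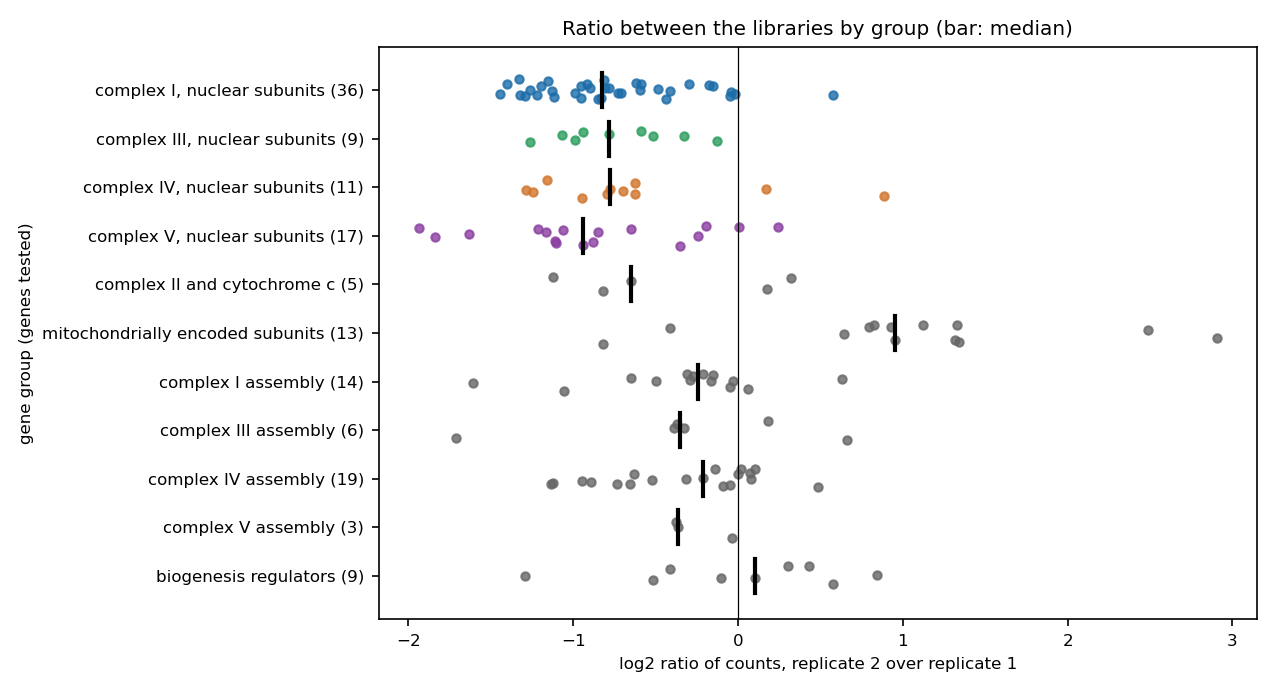
Log2 ratio of scaled counts, replicate 2 over replicate 1, with 1 point per tested gene and a bar at the median, for the nuclear subunits of each complex and for other gene lists of the pathway. The nuclear subunits centre between -0.94 and -0.78, the assembly factors between -0.36 and -0.21, and the mitochondrially encoded subunits at 0.95.

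The labelled cell type was checked against markers. All 8 macrophage markers were detected, with a sum of 16287 and 18004 TPM, led by Lyz2, Cd68 and Adgre1. Of the 7 neutrophil markers, 4 could be tested and all 4 were higher in replicate 1, with only 6 to 17 reads in replicate 2. The 7 summed to 63.5 TPM in replicate 1 and 6.58 TPM in replicate 2. Elane and Mpo, which define neutrophil precursors, were under 1 TPM in both. The 4 megakaryocyte and platelet markers summed to 274 and 95.9 TPM, nearly all of it Pf4. The erythroid markers Hba-a1, Hbb-bs and Alas2 were at 0 in both libraries, T and B cell markers summed to 0.26 and 0.06 TPM, and stromal markers to 0.79 and 0.33 TPM. The part of other cells in the difference between the libraries was not tested.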

How the data were processed

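Both libraries were used, as 1 group. Per the notes deposited with the samples, values refer to mm10 and the GENCODE M21 annotation. The deposited gene tables hold expected counts, TPM, FPKM and bounds on TPM, the authors' transcript tables also give the percent of a gene's level in each transcript, and a second deposited quantification gives estimated counts and TPM. Program names were not given in the sources used here. Members were found by symbol. They and all gene lists were chosen with earlier results of these data known. Ratios used expected counts as deposited, unrounded, scaled by TMM (edgeR 4.0.16) with a prior of 0.5 reads, over genes with a mean count of at least 10, with a threshold of 1.5-fold and no p-value. Levels were log2(TPM + 1), and DESeq2 1.42.0 gave alternative size factors. The ratio script was tested on simulated data. The rule for named genes took the highest and lowest of each complex, all members past a threshold, paralogs and core subunits. Sequences with shared 31-base words marked close copies. Counting intervals are 95% and cover counting error only. The single values of 1 member and 1 marker are not reported here.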

Additional observations from a re-analysis of the deposited data

How the results depend on the processing

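With 1 group of 2 libraries no conditions were compared. No paired analysis was possible because there is 1 group. The median log2 ratio between the libraries stayed below 0 under each alternative, whereas levels and counts have no sign that could reverse. Of all 78 alternative values, 61 stayed within tolerance. Tolerance was 1 SD between the libraries for a level, 1.5 times for a count and 0.1 for a median log2 ratio. A level with 1 library left out could hardly leave its tolerance, because the SD comes from the same 2 libraries. The median log2 level fell from 6.66 to 6.10 over all members with FPKM in place of TPM and from 6.26 to 5.71 in complex I. The count of members at 100 TPM or more was 53 at a threshold of 50 TPM and 13 at 200 TPM, and 27 to 47 with 1 library left out. The median ratio between the libraries was -0.39 with the length trend removed and -0.38 with length and G+C content removed, from -0.83. The 53 members 1.5-fold or more higher in replicate 1 became 24 with length, 22 with length and G+C content, and 24 at a 2-fold threshold. The 1 member higher in replicate 2 became 2 with DESeq2 size factors, 2 in the second quantification, 2 with length, 3 with length and G+C content, and 0 at 2-fold or at a mean count of 100. The YY1 motif was in 1 promoter, from 7, when bases after the start were left out. The length alternatives were chosen after seeing the data and do not remove a trend within a length bin. The members' median ratio with TMM, DESeq2 size factors, library totals and TPM was -0.83, -0.81, -0.90 and -0.89. Depth limits members under 10 reads, of which Cox7a1 alone had any.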
